A study of Mus musculus with 4 samples.

Results

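The genes described here mostly encode nuclear subunits of respiratory complexes II to V and some of their assembly factors. They were measured in mouse bone marrow on 4 expression arrays. The members are all genes whose symbol in the platform's gene table starts with Sdh followed by a, b, c or d, with Uqcr, with Cox followed by a digit, or with Atp5. Symbols marked as pseudogenes (-ps) were left out. Atp5l2, which RefSeq lists as a pseudogene, carries no such mark in the platform's table and is a member. This rule uses names and no measured value. It found 57 genes of 30702 named genes. Of these, 56 had a mean log2 level at or above 5.235, the median of all transcript clusters on the arrays, and these 56 are compared below with all 17208 genes above the same floor. Cox8b, a subunit isoform of heart and skeletal muscle, was below the floor. Sdhaf1, a complex II assembly factor, sat exactly on it.

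The study set marrow of mice treated with Astragalus membranaceus (shortened to astragalus, a legume whose root is a traditional Chinese remedy), with electro-acupuncture (needles carrying a weak current) or with cisplatin (a platinum drug that crosslinks DNA) beside control marrow. Treatment lasted 2 weeks, and marrow was spun out of the tibias. Per the series' design text 6 marrow samples were mixed before extraction, which is read here as 6 per group although the text does not say so outright, and 1 array was made for each of the 4 groups. The sources used here do not give the strain, sex and age of the mice or any dose, and leave unsaid if cisplatin was also given to the mice of the astragalus and electro-acupuncture groups. For this reason all 6 pairs of arrays were compared. With 1 array per group there is no replicate, no test and no p-value, the number of arrays limits the precision, and genes are counted by the size of the difference between 2 arrays. The 6 comparisons share arrays, so their counts are not independent of each other.

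Oxidative phosphorylation moves electrons from nutrients to oxygen across the inner mitochondrial membrane and uses the resulting proton gradient to make ATP. Complex II, succinate dehydrogenase, is also an enzyme of the citrate cycle and passes electrons from succinate to ubiquinone. Complex III, the cytochrome bc1 complex, passes them to cytochrome c, and complex IV, cytochrome c oxidase, passes them to oxygen. Complex V, ATP synthase, lets protons flow back through a ring of c subunits and makes ATP in its F1 head. All subunits of complex II are encoded in the nucleus, whereas the other complexes mix nuclear subunits with subunits encoded in mitochondrial DNA. In marrow, developing red cells carry mitochondria until late in maturation and lose them before they enter the blood, while mature neutrophils rely largely on glycolysis.

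Nuclear respiratory genes are known to be controlled in part by the transcription factors NRF1, GABPA (an ETS family factor) and YY1. Promoter sequence is therefore shown for 6 members picked by hand, and Atp5mpl, the member with the largest difference, is not among them. Whether members with a motif differed more than members without was not tested. RefSeq windows of the GRCm38.p6 build, from 250 bases before to 50 bases after an annotated start, were found for 43 of the 57 genes, with 46 windows in all. The letters GCGCATGCG (NRF1 core) were searched on both strands and occurred in 6 of the 46 windows, 13.0%, against 1.75% of all 32851 windows. CCGGAAGT (ETS core) occurred in 6 member windows, 13.0%, against 3.89% of all windows. AAGATGGCG (YY1 core) occurred in 5 member windows of 4 genes, 10.9%, against 1.40% of all windows. These shares describe letters, not bound sites. Windows of 6 genes follow, written 5′ to 3′ on the strand of the gene, with matches to the 3 motifs in capitals. Cox7a2 (chr9:79759804-79760103, minus strand) and Cox5b (chr1:36691237-36691536, plus strand) are the complex IV subunits with the largest differences from control and hold none of the 3 motifs. Cox6a1 (chr5:115348909-115349208, minus strand) holds the NRF1 core, which its flanking base makes match on both strands, and Cox8a (chr19:7217567-7217866, minus strand) holds the ETS core at 2 places. Uqcr11 (chr10:80406772-80407071, minus strand) is the only window among the 46 with both the NRF1 and the ETS core. Cox7c (chr13:86046746-86047045, minus strand) is the member with the smallest spread over the arrays and is shown for contrast.
Cox7a2: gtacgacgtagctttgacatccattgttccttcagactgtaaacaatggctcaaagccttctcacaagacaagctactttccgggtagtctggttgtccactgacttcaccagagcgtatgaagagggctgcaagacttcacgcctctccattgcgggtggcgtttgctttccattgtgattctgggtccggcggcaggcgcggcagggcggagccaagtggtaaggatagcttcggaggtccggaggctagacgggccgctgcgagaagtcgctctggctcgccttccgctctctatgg
Cox5b: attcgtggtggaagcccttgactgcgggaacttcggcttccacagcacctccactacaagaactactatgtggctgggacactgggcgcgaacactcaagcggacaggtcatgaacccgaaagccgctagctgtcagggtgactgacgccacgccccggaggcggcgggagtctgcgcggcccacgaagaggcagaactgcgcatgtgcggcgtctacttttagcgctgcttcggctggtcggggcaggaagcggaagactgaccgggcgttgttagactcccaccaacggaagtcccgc
Cox6a1: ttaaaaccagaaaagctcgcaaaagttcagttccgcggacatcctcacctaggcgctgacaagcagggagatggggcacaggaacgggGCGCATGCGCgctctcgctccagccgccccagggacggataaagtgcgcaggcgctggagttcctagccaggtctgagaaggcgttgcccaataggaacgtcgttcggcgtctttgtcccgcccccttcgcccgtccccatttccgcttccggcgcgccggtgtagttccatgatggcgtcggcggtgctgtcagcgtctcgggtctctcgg
Cox8a: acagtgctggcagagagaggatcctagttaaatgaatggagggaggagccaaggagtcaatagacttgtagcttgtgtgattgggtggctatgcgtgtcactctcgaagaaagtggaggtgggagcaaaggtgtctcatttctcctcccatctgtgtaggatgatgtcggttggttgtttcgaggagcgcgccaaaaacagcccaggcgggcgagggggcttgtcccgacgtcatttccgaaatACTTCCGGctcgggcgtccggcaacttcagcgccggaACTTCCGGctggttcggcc
Uqcr11: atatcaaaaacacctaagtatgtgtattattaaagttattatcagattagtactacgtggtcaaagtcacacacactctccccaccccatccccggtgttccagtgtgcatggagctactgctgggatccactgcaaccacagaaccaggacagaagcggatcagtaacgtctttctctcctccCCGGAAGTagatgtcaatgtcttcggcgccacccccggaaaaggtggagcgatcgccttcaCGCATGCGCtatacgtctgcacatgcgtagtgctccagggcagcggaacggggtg
Cox7c: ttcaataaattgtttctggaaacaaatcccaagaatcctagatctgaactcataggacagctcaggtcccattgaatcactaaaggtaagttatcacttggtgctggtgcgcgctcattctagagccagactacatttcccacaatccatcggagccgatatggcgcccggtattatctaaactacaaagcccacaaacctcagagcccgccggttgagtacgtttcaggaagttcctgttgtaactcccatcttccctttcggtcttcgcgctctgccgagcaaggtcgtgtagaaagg

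Most members were higher on the astragalus, electro-acupuncture and cisplatin arrays than on the control array. Of the 56 genes compared, 41 had their lowest value of the 4 on the control array, 73.2%, against 32.5% of all genes. The highest value was on the astragalus array in 33 members, 58.9%, against 34.5% of all genes, and on the electro-acupuncture array in 18, 32.1%, against 21.8% of all genes. None was lowest on the electro-acupuncture array, where 23.2% of all genes were. The full order astragalus, electro-acupuncture, cisplatin, control, from highest to lowest, was found in 25 members (44.6%) and in 11.5% of all genes, and the same order with the first 2 arrays exchanged in 10 members (17.9%) and in 5.11% of all genes. After quantile normalization of the 4 arrays the number of members highest on the astragalus array was 15, so the order of astragalus and electro-acupuncture rests on the scaling.

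The marrow label was checked first. Red cell precursor markers were well above the floor, with Slc4a1, the anion exchanger of red cells, at 15.92, 15.19, 15.02 and 15.24 on the astragalus, electro-acupuncture, cisplatin and control arrays. Mpo, the neutrophil granule peroxidase, read 13.75, 13.25, 12.80 and 11.70 in the same order, and S100a8 and S100a9 were at the common ceiling of 19.93 on all 4. Of 9 skeletal muscle markers 4 were below the floor, Myh1, Myh2, Myh4 and Tnnt3, and the median log2 level of the other 5 lay between 5.55 and 5.64 on every array. No member reached the ceiling. The astragalus array had a wider spread of values than the others, with 7.20 log2 units between its 5th and 95th percentiles over all clusters, against 6.80, 6.83 and 6.81 on the electro-acupuncture, cisplatin and control arrays.

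Complex IV held several of the largest differences. Cox7a2, the widely expressed form of subunit VIIa, had log2 levels of 12.46 on the astragalus array, 12.25 on the electro-acupuncture array, 11.42 on the cisplatin array and 10.34 on the control array. Astragalus and electro-acupuncture lay close together, cisplatin lay between them and control, and the differences from control were 4.35-fold, 3.76-fold and 2.11-fold for astragalus, electro-acupuncture and cisplatin. Cox5b, a zinc-binding subunit on the matrix side, followed the same order at 12.77, 12.68, 12.09 and 10.99. It was 3.43-fold, 3.23-fold and 2.14-fold above the control array in these 3 groups. Cox6b1, which faces the intermembrane space, measured 13.25 on astragalus, 13.13 on electro-acupuncture, 12.54 on cisplatin and 11.67 on control, and Cox6a1 measured 11.87, 11.62, 11.20 and 10.39 in that order. For Cox8a, a small membrane subunit, the levels were 13.48, 13.45, 12.73 and 12.16. As deposited, all 5 genes kept the order astragalus, electro-acupuncture, cisplatin, control, and their control value was the lowest each time. The order of astragalus and electro-acupuncture rests on the scaling. After quantile normalization all 10 widely expressed subunits of complex IV were lower on astragalus than on electro-acupuncture. The same held for all 10 once the dependence of the difference on level was removed.

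The other 5 widely expressed subunits of complex IV differed less. Cox5a was highest on the electro-acupuncture array, at 12.98, with 12.81 on astragalus, 12.24 on cisplatin and 11.97 on control. Cox4i1, the common form of the subunit that binds ATP and slows the enzyme, read 9.99, 9.73, 9.18 and 9.12 on the astragalus, electro-acupuncture, cisplatin and control arrays. Cisplatin and control were thus nearly level for Cox4i1, while astragalus was 1.83-fold and electro-acupuncture 1.53-fold above control. Cox6c and Cox7b differed from control by between -0.07 and 0.26 in log2 on the 3 other arrays. Cox7c was the flattest member of all, with 10.83, 10.77, 10.74 and 10.74 in the same order. Over all 10 widely expressed subunits the median log2 difference from control was 1.10 for astragalus, 1.12 for electro-acupuncture and 0.42 for cisplatin. Once the dependence of the difference on level was removed, the median was 0.67 for astragalus and 0.90 for electro-acupuncture. All 10 were higher than control on the astragalus and electro-acupuncture arrays as deposited, and 7 were at least 1.5-fold higher on each. For Cox6c, Cox7b and Cox7c the direction on the astragalus array rests on the scaling, since 7 of the 10 were above control there once that dependence was removed. On the electro-acupuncture array 9 of the 10 were then above control, and Cox7c was not.

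Isoforms that other organs use instead were near the floor, with 1 exception. Cox6b2, known as the testis form of subunit VIb, had levels of 9.69, 9.71, 9.26 and 8.45 on the astragalus, electro-acupuncture, cisplatin and control arrays. It was 2.36-fold, 2.39-fold and 1.75-fold above control and followed the order of Cox6b1 except that astragalus and electro-acupuncture were level. Cox4i2, the lung form of subunit IV, read 5.85, 6.11, 6.09 and 5.91. Cox6a2, a heart and skeletal muscle form, read 6.39 on astragalus, 6.56 on electro-acupuncture, 6.32 on cisplatin and its highest value, 6.74, on control. Cox7a1, another muscle form, read 6.12, 5.91, 5.64 and 5.58, and Cox8b, the third muscle form, stayed between 3.99 and 4.42. The skeletal muscle markers, as given above, were near the floor on all 4 arrays as well.

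Cox7b2 and Cox8c, both known from testis, gave the largest differences between astragalus and electro-acupuncture in the lower direction. Cox7b2 measured 4.85 on astragalus, 6.02 on electro-acupuncture, 5.41 on cisplatin and 5.53 on control, so only its astragalus value lay under the floor. Cox8c measured 5.53, 6.05, 5.69 and 5.99 in that order. A stricter floor of 6.63, the upper quartile of all clusters, leaves both genes out. As a group the 6 tissue isoforms above the floor had a median log2 difference from control of -0.20 for astragalus, 0.26 for electro-acupuncture and -0.03 for cisplatin, with 2, 5 and 3 of the 6 higher.

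**Figure D1:**
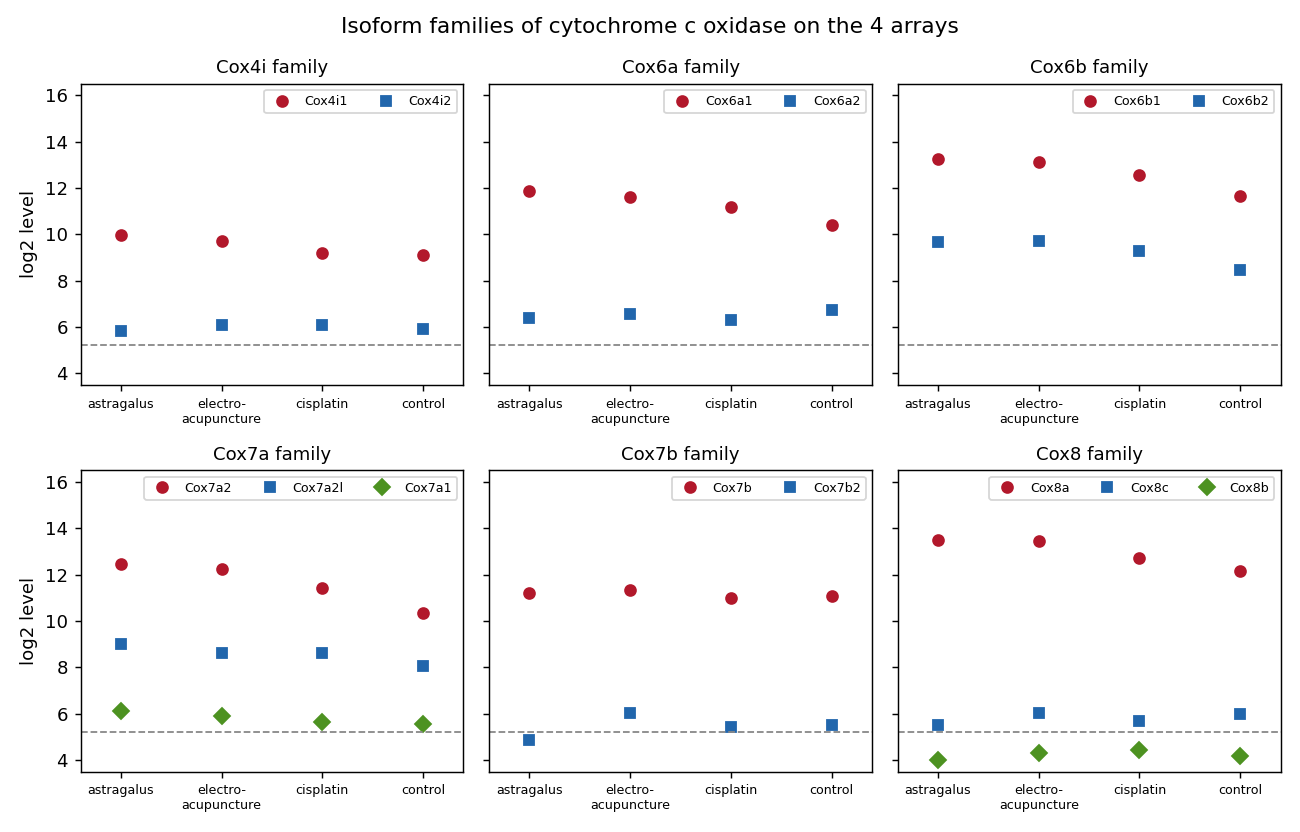
Log2 level (vertical axis) of the isoforms of 6 cytochrome c oxidase subunits on the astragalus, electro-acupuncture, cisplatin and control arrays, 1 point per array, with the floor of 5.235 as a dashed line. In the values as deposited, Cox7a2, Cox6b1, Cox6a1 and Cox8a are highest on astragalus and lowest on control. Cox6b2 is the tissue form that lies well above the floor, and levels of different genes are not on a common scale.

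Assembly factors of complex IV and the related gene Cox7a2l varied in smaller steps. Cox7a2l, which helps to join complexes III and IV into supercomplexes, read 9.0 on astragalus, 8.61 on both electro-acupuncture and cisplatin, and 8.05 on control. Cox11, a copper chaperone, read 8.74, 8.52, 8.22 and 8.0 on the astragalus, electro-acupuncture, cisplatin and control arrays, 1.67-fold above control for astragalus. Cox20, a chaperone of the mitochondria-encoded subunit 2, went against the rest, with 13.18 on astragalus, 12.91 on electro-acupuncture and 12.86 on cisplatin against 13.17 on control. Cox19, which handles copper, was lowest on astragalus, with 5.67, 5.87, 5.91 and 5.80 on the astragalus, electro-acupuncture, cisplatin and control arrays. Cox10 and Cox15, enzymes of heme A synthesis, Cox17, a copper carrier, and Cox18, an insertase for subunit 2, differed from control by between -0.02 and 0.51 in log2 on the 3 other arrays. Over the 8 genes the median log2 difference from control was 0.36 for astragalus, 0.35 for electro-acupuncture and 0.21 for cisplatin, smaller than the medians of the widely expressed subunits. After removal of the level trend it was 0.24 for astragalus and 0.32 for electro-acupuncture.

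In the F1 head of ATP synthase the epsilon and beta subunits differed most. Atp5e, the epsilon subunit, had levels of 9.77 on astragalus, 9.43 on electro-acupuncture, 8.77 on cisplatin and 8.12 on control. Atp5b, the catalytic beta subunit, had 11.34, 11.27, 10.34 and 9.98 in that order. The epsilon subunit was 3.14-fold, 2.48-fold and 1.57-fold above control, and the beta subunit 2.57-fold, 2.45-fold and 1.28-fold, for astragalus, electro-acupuncture and cisplatin. Atp5a1, the alpha subunit that alternates with beta in the head, differed less, with 12.53, 12.40, 11.99 and 11.88. Atp5d, the delta subunit, lay within 6.81 to 7.11 on all arrays. Over these 4 genes the median log2 difference from control was 1.005 for astragalus and 0.905 for electro-acupuncture. After removal of the level trend it was 0.56 for astragalus and 0.74 for electro-acupuncture, and Atp5a1 was then 0.14 above control on astragalus. The gamma subunit is not analysed here.

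The same mature c subunit of the proton-carrying ring is encoded by 3 genes, and each was lowest on the control array. Atp5g1 read 8.08 on astragalus, 7.75 on electro-acupuncture, 7.15 on cisplatin and 7.04 on control. Atp5g3 read 12.26, 11.99, 11.68 and 11.22 in that order. Cisplatin thus lay close to control for Atp5g1 and about midway for Atp5g3. Atp5g2 read 12.32, 12.58, 12.14 and 11.47, but the transcript cluster behind these values is numbered for chromosome 7, whereas RefSeq places the gene on chromosome 15. In its cluster numbered for chromosome 15 the levels were 10.46, 10.59, 10.31 and 9.69, with electro-acupuncture again highest and control lowest. Over the 3 genes the median log2 difference from control was 1.04 for astragalus and 0.77 for electro-acupuncture. After removal of the level trend it was 0.56 for astragalus and 0.70 for electro-acupuncture, and all 3 stayed above control on both. Against cisplatin the astragalus difference of Atp5g2 was then -0.27, in place of 0.18.

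The stalk and membrane parts of ATP synthase included the member with the largest difference of all. Atp5mpl, a small proteolipid of the membrane part, had levels of 14.40 on astragalus, 14.34 on electro-acupuncture, 13.40 on cisplatin and 12.21 on control. This was 4.56-fold, 4.38-fold and 2.28-fold above the control array. Atp5md, a small subunit known for its part in joining ATP synthase dimers, was highest on electro-acupuncture at 13.08, with 12.93 on astragalus, 12.06 on cisplatin and 11.61 on control. It was the single member at least 2-fold higher on electro-acupuncture than on cisplatin, at 2.03-fold. Atp5k, subunit e, formed a different pattern, with 10.23 on astragalus, 10.28 on electro-acupuncture and 10.27 on cisplatin against 9.27 on control. Its 3 treated arrays were level with each other and between 1.95-fold and 2.01-fold above control.

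The peripheral stalk genes moved in smaller steps, and Atp5f1, subunit b, had its lowest value on cisplatin, with 8.37 on astragalus, 8.09 on electro-acupuncture, 7.56 on cisplatin and 7.78 on control. Atp5o, the stalk protein that confers oligomycin sensitivity, Atp5h, subunit d, Atp5j, coupling factor 6, and Atp5j2, membrane subunit f, were between 0.26 and 0.82 in log2 above control on the astragalus array. On the electro-acupuncture array these 4 were between 0.14 and 0.81 above control, and on the cisplatin array between 0.01 and 0.30. Over the 10 stalk and membrane genes the median log2 difference from control was 0.78, 0.57 and 0.24 for astragalus, electro-acupuncture and cisplatin, and after removal of the level trend it was 0.46 for astragalus and 0.52 for electro-acupuncture. Atp5sl, which carries an Atp5 name but is listed by RefSeq as Dmac2, an assembly factor of complex I, ran the other way, with 5.52 on astragalus, 5.78 on electro-acupuncture, 5.88 on cisplatin and its highest value, 6.17, on control.

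Atp5l, subunit g, and its copies need a separate reading. The cluster used for Atp5l had levels of 16.31 on astragalus, 15.70 on electro-acupuncture, 15.66 on cisplatin and 15.70 on control, and that used for Atp5l2, which RefSeq lists as a pseudogene, had 13.57, 12.77, 12.77 and 12.50. In both, astragalus alone stood above the other 3 arrays, by 1.53-fold and 1.74-fold over electro-acupuncture. The pseudogene Atp5l-ps1, outside the rule, showed the same shape at 11.88, 11.05, 11.03 and 11.01. For Atp5l the astragalus difference from control rests on the scaling. It was 0.05 in log2 after removal of the level trend, in place of 0.61. Over electro-acupuncture Atp5l was then 0.38 higher on astragalus. Atp5l2 was then 0.51 above control and 0.50 above electro-acupuncture on astragalus. The Atp5l cluster is numbered for chromosome 5, while the gene lies on chromosome 9, and its cluster of highest level numbered for chromosome 9 read 8.69, 8.27, 8.15 and 8.19. Astragalus was the highest there too, by 0.42 in log2 over electro-acupuncture. Whether these clusters share probes was not tested, so the split of signal between Atp5l, Atp5l2 and the pseudogene is uncertain.

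**Figure D2:**
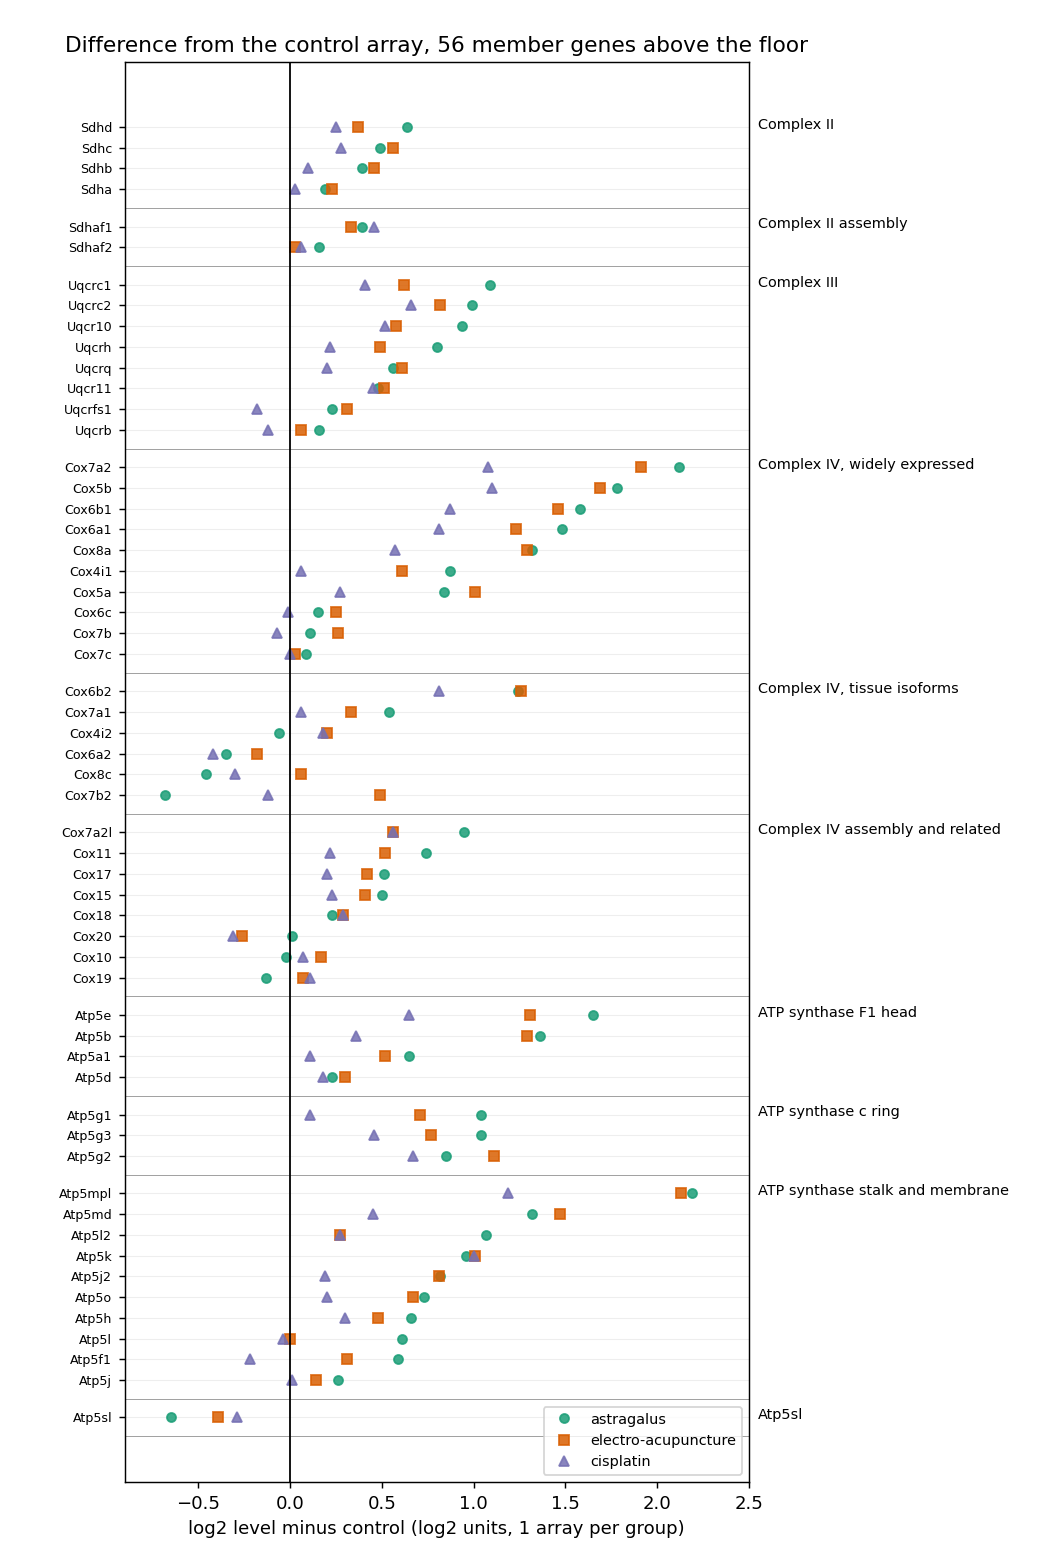
Difference from the control array in log2 units (horizontal axis) for the 56 member genes above the floor, grouped by role, with circles for astragalus, squares for electro-acupuncture and triangles for cisplatin. Atp5mpl, Cox7a2 and Cox5b lie farthest to the right, at 2.19, 2.12 and 1.78 for astragalus, and Cox7b2 and Atp5sl lie farthest to the left, at -0.68 and -0.65.

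In complex III the core proteins differed most from control on the astragalus and electro-acupuncture arrays as deposited. On the cisplatin array Uqcr10 and Uqcr11, at 0.52 and 0.45 in log2 above control, exceeded the core protein Uqcrc1 at 0.41. Uqcrc1 read 9.19 on astragalus, 8.72 on electro-acupuncture, 8.51 on cisplatin and 8.10 on control, and Uqcrc2 read 10.01, 9.84, 9.68 and 9.02 in that order. Astragalus was 2.13-fold above control for Uqcrc1 and 1.99-fold for Uqcrc2, the other core protein. Among the small subunits, Uqcr10 read 8.31, 7.95, 7.89 and 7.37, and Uqcrh, the hinge protein that contacts cytochrome c1, read 11.66, 11.35, 11.08 and 10.86. Uqcrfs1, the Rieske iron-sulfur protein, was lowest on cisplatin, with 7.66 on astragalus, 7.74 on electro-acupuncture, 7.25 on cisplatin and 7.43 on control. Uqcrb, which helps to bind ubiquinone, was lowest on cisplatin as well, with 11.63, 11.53, 11.35 and 11.47 on astragalus, electro-acupuncture, cisplatin and control. The remaining small subunits, Uqcrq and Uqcr11, were between 0.20 and 0.61 in log2 above control on the 3 treated arrays. The 8 genes had median log2 differences from control of 0.68, 0.55 and 0.32 for astragalus, electro-acupuncture and cisplatin. After removal of the level trend, the dependence of the difference on level described further on, the medians were 0.37 for astragalus and 0.53 for electro-acupuncture, so the order of these 2 turned. All 8 were above control on the astragalus and electro-acupuncture arrays as deposited, and 7 of them on each after the level trend was removed, when Uqcrb was below it. Cyc1, cytochrome c1 itself, lies outside the naming rule and read 9.82 on astragalus and electro-acupuncture, 9.28 on cisplatin and 8.71 on control.

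Complex II had smaller median differences than the widely expressed subunits of the other 3 complexes. Sdha, the flavoprotein that oxidises succinate, read 8.21 on astragalus, 8.25 on electro-acupuncture, 8.05 on cisplatin and 8.02 on control. Sdhb, the iron-sulfur subunit, read 8.05, 8.12, 7.76 and 7.66 in that order. For both, electro-acupuncture was highest and control lowest, within 1.38-fold. Of the membrane anchors, Sdhc read 8.27, 8.34, 8.06 and 7.78, and Sdhd read 6.42, 6.15, 6.03 and 5.78. Sdhd was the only subunit of the complex at least 1.5-fold above control in any group, at 1.56-fold on the astragalus array. The median log2 difference from control over the 4 subunits was 0.44 for astragalus, 0.42 for electro-acupuncture and 0.18 for cisplatin, and it was 0.26 for astragalus and 0.39 for electro-acupuncture after removal of the level trend. All 4 were above control on each of the 3 arrays, except that Sdha on astragalus was level with control (-0.01 in log2) after the level trend was removed. Sdhaf1, which helps to insert iron-sulfur clusters into Sdhb, read 5.33, 5.27, 5.40 and 4.94, and Sdhaf2, which helps to attach the flavin to Sdha, read 6.69, 6.56, 6.59 and 6.53, both in the order astragalus, electro-acupuncture, cisplatin, control.

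Against the control array, the members as a whole were shifted upwards more often than genes in general. On the astragalus array 49 of 56 were higher, where 9513 of all 17208 genes were, and 30 were at least 1.5-fold higher, 53.6%, where 14.4% of all genes were, and the median log2 difference was 0.62 against 0.05 over all genes. Only 2 members, Cox7b2 and Atp5sl, were at least 1.5-fold lower, where 6.67% of all genes were, and 14 differed at least 2-fold, where 8.8% of all genes did. After removal of the level trend the median was 0.37, with 18 members at least 1.5-fold higher and 6 at least 2-fold different. On the electro-acupuncture array 52 members were higher, where 9249 of all genes were, 21 of the members by at least 1.5-fold (37.5%, against 11.2% of all genes) and none lower by that much (against 6.85%). The median was 0.49 against 0.04, and 13 members, 23.2%, differed at least 2-fold, where 7.26% of all genes did. On the cisplatin array 44 members and 8706 of all genes were higher, with a median of 0.21 against 0.01. Here 10 members, led by Atp5mpl, Cox5b, Cox7a2, Atp5k and Cox6b1, were at least 1.5-fold higher, 17.9% against 7.08% of all genes, none was at least 1.5-fold lower (against 4.28%), and 4 differed at least 2-fold, 7.14% against 2.97%.

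Against the cisplatin array, both other treatments were higher again. On the astragalus array 47 of 56 members were higher, where 9771 of all 17208 genes were. At least 1.5-fold higher were 16, 28.6% against 9.37% of all genes. None was at least 1.5-fold lower, where 5% of all genes were, and 4 differed at least 2-fold, 7.14% against 3.92%. Cox7a2, Atp5mpl, Atp5b, Atp5e and Atp5g1 led, between 0.93 and 1.04 in log2, and Cox7b2 and Atp5sl were lowest, at -0.56 and -0.36. On the electro-acupuncture array 49 members were higher, where 9039 of all genes were, and 12 were at least 1.5-fold higher, 21.4% against 6.03% of all genes. None was at least 1.5-fold lower, against 5.26%, and Atp5md alone differed at least 2-fold, 1.79% of members against 3.91% of all genes. Atp5md, Atp5mpl, Atp5b, Cox7a2 and Cox5a led, between 0.74 and 1.02, and the lowest were Sdhaf1 at -0.13 and Atp5sl at -0.10. The median log2 difference was 0.38 for astragalus and 0.27 for electro-acupuncture, against 0.06 and 0.02 over all genes. The astragalus part of this comparison depends on the scaling: its median was 0.20 with 10 members at least 1.5-fold higher (17.9%, against 5.78% of all genes) after quantile normalization. After removal of the level trend its median was 0.13, with 39 of 56 higher (69.6%, against 49.6% of all genes). Then 5 were at least 1.5-fold higher (8.93%, against 4.40% of all genes).

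Astragalus and electro-acupuncture differed little from each other in these genes. The median log2 difference was 0.07, beside 0.06 over all genes. Higher were 34 members, 60.7%, near the 57.5% of all genes, and 22 were lower. At least 1.5-fold higher on astragalus were 2 members, Atp5l2 and Atp5l, where 5.68% of all genes were, and 1 was at least 1.5-fold lower, Cox7b2, where 4.18% of all genes were. That gene was also the only member with a 2-fold difference, 1.79% of members against 1.52% of all genes. The direction of the group is not settled. After quantile normalization 16 members were higher, 28.6% against 54.9% of all genes, and 39 lower. After removal of the level trend 13 were higher, 23.2% against 50.1%, and 43 lower.

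The differences varied with the level of a gene. Members were more often well above the floor than other genes, since 80.4% of them against 53.6% of all genes compared reached 6.63, and on the astragalus array differences from control grew with level. Across genes, which are not independent replicates and share the 2 arrays, Spearman's rho between mean level and the astragalus difference from control was 0.61 over the 56 members and 0.36 over all 17208 genes. For electro-acupuncture it was 0.46 over the members and 0.04 over all genes. Among genes at or above 12, the 11 members had median log2 differences from control of 1.07 for astragalus and 1.11 for electro-acupuncture, against 0.66 and 0.33 for all 1030 genes at that level. Between 10 and 12 the 9 members had 0.96 and 0.77, against 0.37 and 0.07 for all 1123 genes. Between 8 and 10 the 14 members had 0.74 and 0.58, against 0.23 and 0.01 for all 2861 genes. Below 8 the differences were smaller, and the 22 members there had 0.24 and 0.31, against 0 and 0.03 for all 12194 genes. Once the loess trend of difference on level was removed, 43 of 56 members were above control on astragalus, 76.8% against 49.2% of all genes. The 18 members at least 1.5-fold higher, 32.1%, stood against 9.47% of all genes. The electro-acupuncture median was then 0.44, with 49 higher, 87.5% against 48.6%, and 20 at least 1.5-fold higher, 35.7% against 9.51%.

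**Figure D3:**
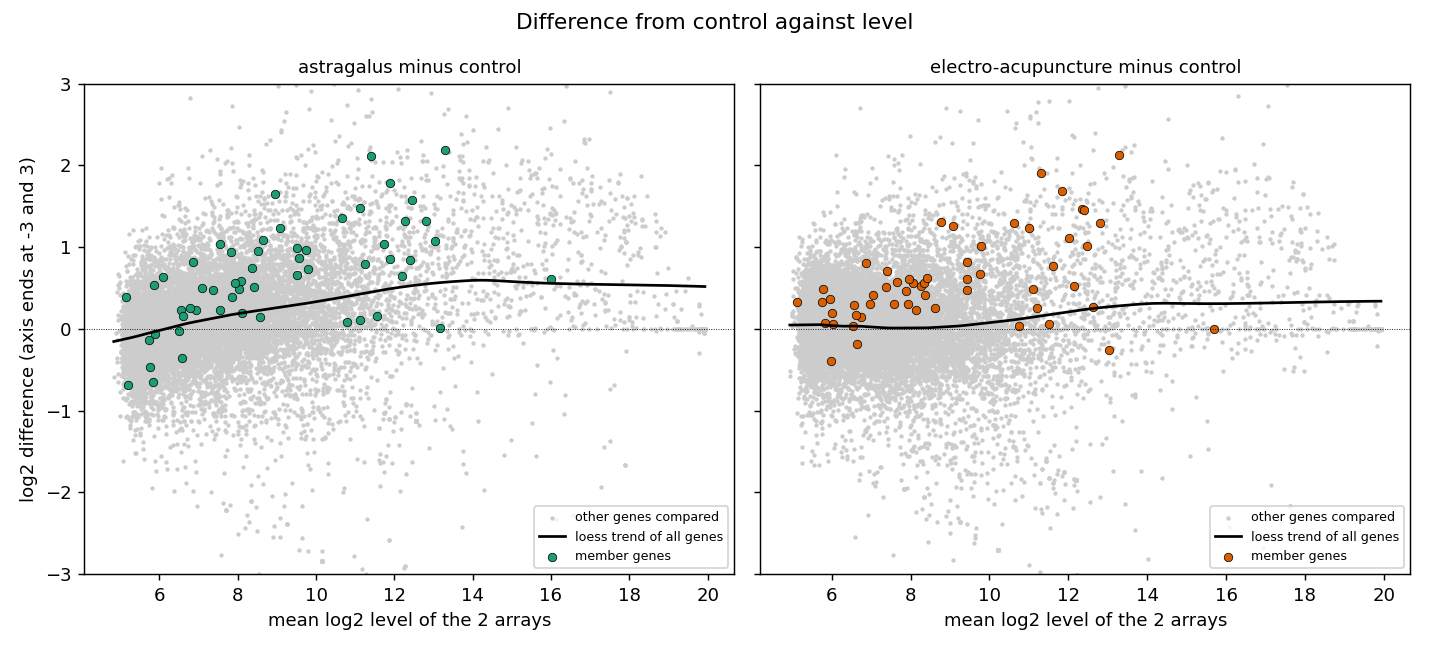
Log2 difference from the control array (vertical axis) against the mean log2 level of the 2 arrays (horizontal axis) for astragalus (left) and electro-acupuncture (right). The 56 members are in colour, the other genes of the 17208 compared in grey, and the loess trend of all genes is a line. The vertical axis is cut, so genes with the largest differences are not drawn. These differences reached -6.43 and 5.8 for astragalus and -5.3 and 3.58 for electro-acupuncture. The trend climbs with level on the astragalus side and stays nearer to 0 on the electro-acupuncture side, and most members lie above it in both.

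Astragalus against control and electro-acupuncture against cisplatin use 4 different arrays, so these 2 comparisons share none. Across the 56 members Pearson's r between the 2 differences was 0.58 and Spearman's rho 0.53, while over all genes compared the values were 0.44 and 0.27. In a second pairing without a shared array, astragalus against cisplatin and electro-acupuncture against control, r was 0.64 and rho 0.66 over the members, and 0.50 and 0.29 over all genes. In the third, cisplatin against control and astragalus against electro-acupuncture, r was 0.23 and rho 0.24 over the members, and 0.09 and 0.03 over all genes. The points share the mean level of a gene, which was itself related to the differences.

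Other lists of mitochondrial genes differed in the size of their shift, and the lists were not matched for level. Of 34 complex I subunits, 34 were above control on astragalus, 33 on electro-acupuncture and 32 on cisplatin, with median log2 differences of 0.70, 0.55 and 0.23. Ndufa4, which is also known as a component of complex IV, was the largest of them for astragalus, with 14.62 on astragalus, 14.27 on electro-acupuncture, 13.61 on cisplatin and 12.69 on control. Among 9 genes for cytochrome c, cytochrome c1 and carriers or channels the medians were 0.95, 0.75 and 0.57. Slc25a5, an ADP/ATP carrier that exports the product of ATP synthase, led with 13.38, 13.29, 12.30 and 11.28. Genes of the citrate cycle had medians of 0.52, 0.40 and 0.12 over 16 genes, led by Mdh2, malate dehydrogenase, at 10.90, 10.60, 9.89 and 9.09. Protein import and chaperone genes had medians of 0.79, 0.76 and 0.41 over 15 genes, led on the astragalus array by the chaperone Hspa9 at 11.03, 10.93, 10.60 and 9.52.

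Genes that regulate or assist the mitochondrial programme were closer to control, but they also had lower levels. The median log2 level on the control array was 6.91 for the biogenesis regulators and 6.38 for the assembly factors, against 8.11 for the members. The 22 members with a mean level below 8 had a median astragalus difference from control of 0.24. Whether role or level accounts for the contrast was not tested. The 14 regulators of mitochondrial biogenesis above the floor had median log2 differences from control of 0.03 for astragalus, 0.12 for electro-acupuncture and -0.08 for cisplatin. None was at least 1.5-fold higher on any of the 3, and 1 was at least 1.5-fold lower, Tfb1m on cisplatin at -0.65. The largest for astragalus was Tfam, which packages mitochondrial DNA, at 7.43 on astragalus, 7.30 on electro-acupuncture, 6.97 on cisplatin and 6.89 on control. Gabpa, the ETS factor whose core was searched for in the promoters, read 9.99, 9.84, 9.51 and 9.58. For the other factors searched for, Nrf1 read 7.78, 7.40, 7.50 and 7.77, and Yy1 read 10.25, 10.07, 10.08 and 9.89. The 20 respiratory assembly factors outside the naming rule had medians of 0.23, 0.12 and 0.10, and 72 mitochondrial ribosomal protein genes 0.36, 0.30 and 0.15. The 32 cytosolic ribosomal protein genes, which are not mitochondrial, had 0.55, 0.50 and 0.35, beside 0.62, 0.49 and 0.21 for the members. The ribosomal medians were thus close to those of the members on astragalus and electro-acupuncture and higher on cisplatin. The median level of these ribosomal genes on the control array was 11.2, above that of the members.

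**Figure D4:**
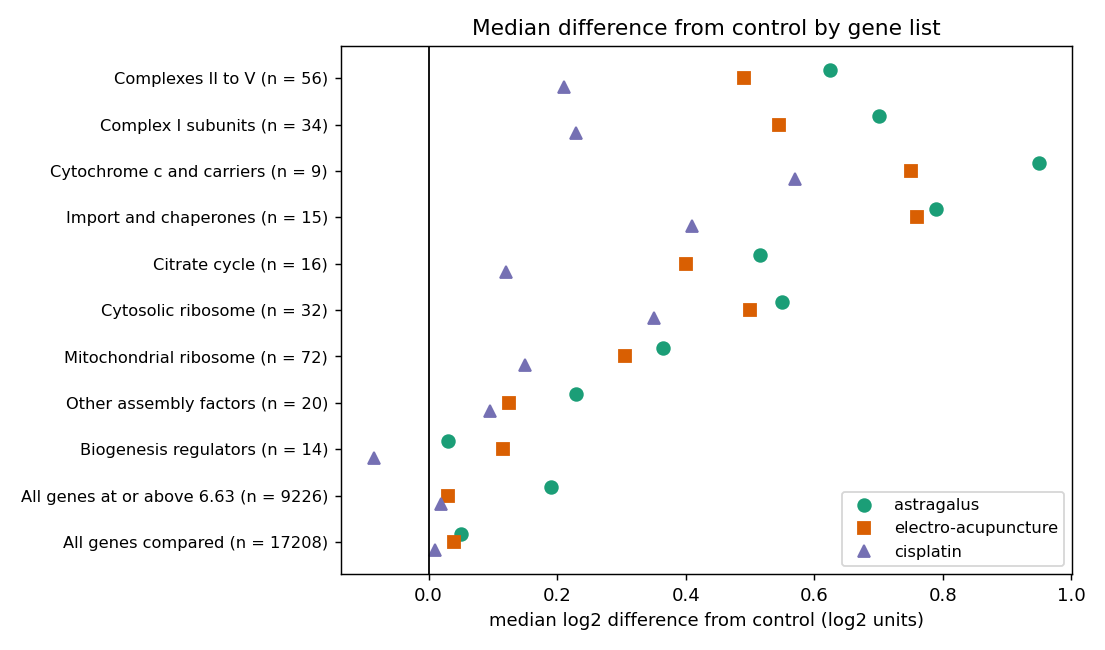
Median log2 difference from the control array (horizontal axis) for the member genes, 8 other gene lists, all genes at or above a level of 6.63 and all genes compared, with circles for astragalus, squares for electro-acupuncture and triangles for cisplatin. The members and every other list except the biogenesis regulators lie to the right of all genes in each group, and the biogenesis regulators lie near 0.

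Subunits encoded in mitochondrial DNA could be compared only in part. COX1, the catalytic subunit of complex IV, was at the ceiling on all 4 arrays, so no difference of it is measurable, and ND3 and ND6 of complex I were at the ceiling too. COX2, the copper-bearing subunit of complex IV, read 12.89 on astragalus and 12.97 on each of the other 3 arrays. Its value was identical on 3 arrays, and whether its probes could show a difference at this level was not tested. ND2 of complex I read 16.30 on astragalus, 17.71 on electro-acupuncture, 19.79 on cisplatin and 18.23 on control, so the cisplatin value, close to the ceiling, was the highest.

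Markers of marrow cell types differed between the arrays as well, and in mixed marrow fewer cells of a type and less RNA per cell cannot be told apart. Of 6 markers of dividing cells, 6 were higher on astragalus than on cisplatin, with a median log2 difference of 1.17, and 6 were higher on electro-acupuncture than on cisplatin, with a median of 0.58. Their summed linear level was 494719 on astragalus, 333647 on electro-acupuncture, 259649 on cisplatin and 337151 on control. Against control these markers had medians of 0.61 on astragalus, -0.05 on electro-acupuncture and -0.40 on cisplatin, so on the electro-acupuncture and cisplatin arrays they did not follow the members. All 5 red cell precursor markers were higher on astragalus than on cisplatin, with a median of 0.77, and their sums were 155695, 102156, 89356 and 94634 on the astragalus, electro-acupuncture, cisplatin and control arrays. Against control, 4, 2 and 2 of the 5 were higher on astragalus, electro-acupuncture and cisplatin, with medians of 0.68, -0.05 and -0.22. On the electro-acupuncture and cisplatin arrays these markers thus did not follow the members either.

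Megakaryocyte markers were above control in 5 of 5 genes on each of the 3 arrays, with a median log2 difference of 1.96 each time. The median gene was Pf4, platelet factor 4, each time, which read the same value of 17.20 on the astragalus, electro-acupuncture and cisplatin arrays against 15.24 on control. Their sums were 665395 on astragalus, 695338 on electro-acupuncture, 560598 on cisplatin and 108276 on control. Of 5 osteoblast markers 4, 4 and 5 were higher than control on astragalus, electro-acupuncture and cisplatin, and their sums of 11262, 5117 and 36404 against 1688 put cisplatin highest, unlike the members. Of 6 fat markers 3 were above the floor, of which 3, 2 and 3 were higher than control, with median log2 differences of 1.30, 0.92 and 1.46 and sums of 897, 900 and 1236 against 414. Among 9 neutrophil markers 7, 4 and 4 were above control, with sums of 2933355, 2856636 and 2774333 against 2856453. S100a8 and S100a9, at the ceiling throughout, make up most of these sums. The 4 primary granule genes of the list, Mpo, Elane, Ctsg and Prtn3, followed the order astragalus, electro-acupuncture, cisplatin, control that was the most frequent one among the members. They were between 1.21 and 2.05 in log2 above control on astragalus, between 1.04 and 1.86 on electro-acupuncture and between 0.39 and 1.31 on cisplatin. Camp, Ltf and Ngp, of the same list, did not follow this order. Against control they differed by 0.13, 0.42 and 0.01 on astragalus, 0, -0.17 and 0 on electro-acupuncture and -0.37, -0.28 and 0 on cisplatin. The median over all 9 neutrophil markers was 0.42, 0 and 0 in these groups. Early B cell markers ran lower than control in 5, 4 and 6 of 6 genes, with sums of 2229, 1883 and 1508 against 4185. None of the defining markers of these lists read 0, since the log2 values start at 2.7. The part of cell makeup in the differences of the respiratory genes was not tested.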

How the data were processed

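Total RNA of mixed marrow was hybridised to 1 Affymetrix array in each of the 4 groups. The deposited values are log2 levels, 1 for each array and transcript cluster, which is a set of probes for 1 gene or transcript. They were made by the authors with Affymetrix Expression Console per the submitters' processing notes. The sources used here give neither its version nor its summary method nor a genome build. The scale was inferred from the range of 2.7 to 19.93. The 4 columns were used as deposited, without further normalization.

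Of 65956 clusters, 32750 were in the platform's gene table, 31258 of them with 1 symbol, and the 1492 with several symbols named no gene. Symbols were updated through the RefSeq gene table of GRCm38.p6, to which all 57 members matched, and members are called by their platform symbols. For a gene with several clusters the one with the highest mean was used, which concerned 3 members. Cluster numbers hold a chromosome code that equalled the RefSeq chromosome in 99.0% of 31244 clusters, and 2 member clusters carried another code. A difference is log2 of the first array named minus that of the second. Genes were counted at 1.5-fold and 2-fold, and no test was run.

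Members, gene lists, markers and thresholds were chosen with earlier results of these data known. Named with all 4 values are the succinate dehydrogenase subunits, the isoform families, the c subunit genes and the 5 largest differences in each direction of each comparison. The other genes are given by range or count. From another nuclear mitochondrial list at most the 4 largest are named, besides the factors searched for in the promoters. Some marker genes are named too. Alternatives were no floor, a floor at the 75th percentile, quantile normalization, centring, loess removal of the level trend (span 0.3), the mean over clusters, genes at the ceiling left out and, added after seeing the data, the removal of Atp5l2 with Atp5l and Atp5g2 read from clusters of their own chromosome. The steps were tested on simulated data. Tools were Python 3.11.15, pandas 2.3.3, numpy 2.4.6, scipy 1.17.1, statsmodels 0.14.6 and matplotlib 3.10.9.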

Additional observations from a re-analysis of the deposited data

How the results depend on the processing

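No paired analysis was possible because each group has 1 array. Every call here is by size, and with 1 array per group no spread is known. Of the summary values recomputed under the alternatives, 133 stayed within 1.5 times the value as deposited and 23 did not. Of the values of single genes 1084 did and 123 did not, and no difference of at least 1.5-fold changed sign. Much of this agreement was fixed in advance. The choice of floor and the removal of genes at the ceiling cannot change the value of a single member. The mean over clusters and the choice of chromosome can change only the 3 members with several clusters. Leaving out genes at the ceiling also keeps every summary value, since no member reached it. Only quantile normalization, centring and loess change the scaling. For cisplatin against control, quantile normalization left 2 members at least 2-fold different in place of 4. For astragalus against cisplatin, the median log2 difference of 0.38 became 0.20 after quantile normalization and 0.13 after loess removal of the level trend. The count of members at least 1.5-fold higher, 16, became 10 and 5 under these 2, and the count at least 2-fold different, 4, became 0 under both and 0 after centring on the median of all genes, where several members had lain at the limit. For electro-acupuncture against cisplatin, 2 members were at least 2-fold different after quantile normalization and 0 after loess, in place of 1. For astragalus against control, loess gave a median of 0.37, 18 members at least 1.5-fold higher and 6 at least 2-fold different, in place of 0.62, 30 and 14. For astragalus against electro-acupuncture, the median of 0.07 became -0.10 after quantile normalization, -0.16 after loess and 0.005 after centring. The 2 members at least 1.5-fold higher became 0 after quantile normalization, 0 after loess, 1 after centring, 1 with the mean over clusters and 0 without Atp5l2 and with Atp5l and Atp5g2 from clusters of their own chromosome, a choice made after seeing the data. The 1 member at least 2-fold different became 0 with the floor at the 75th percentile, which leaves Cox7b2 out. Members highest on the astragalus array numbered 15 after quantile normalization in place of 33. The cause of these changes was not tested where the construction of the alternative does not show it.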

Other observations

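Some clusters of the same genes carry several symbols and name no single gene. The cluster shared by Cox5b and Gm11273 read 11.82 on astragalus, 11.03 on electro-acupuncture, 11.04 on cisplatin and 10.86 on control, so astragalus alone stood above the other 3 arrays, unlike in the cluster of Cox5b alone. The cluster of Cox14 and Gm29733 was highest on cisplatin, with 8.69, 8.94, 9.14 and 8.99 in the same order. The cluster of Cox16, Gm20498 and Synj2bp read 7.30, 7.25, 7.16 and 7.05, and that of Atp5g2 and Gm10231 read 9.49, 9.99, 9.52 and 9.44, with electro-acupuncture highest. Of the 2 pseudogene clusters left out by the rule, Atp5c1-ps stayed within 6.03 to 6.26.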
